A study of Mus musculus with 10 samples.

Results

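The genes described here are 10 genes of DNA replication licensing and S phase: Pcna, Ccne1, Ccne2, Mcm2, Mcm3, Mcm4, Mcm5, Mcm6, Mcm7 and Cdc6. Their probes were taken by gene name from the scanner files, which gave 13 of 39429 probes on the array. Of these, 12 probes of 9 genes were bright enough to be tested, among 25865 probes of 20663 genes. In mouse embryonic stem (ES) cells that lack both Tet1 and Tet2 (DKO), 2 of the 9 genes passed the test against wild-type (WT) cells and both were lower, where 4.64% of all genes passed and 1.74% passed as lower. They were Pcna, which was 1.43-fold lower, and Ccne1, which was 1.33-fold lower. The median log2 ratio over all genes was 0.02. The 6 Mcm genes and Cdc6 did not pass. Every DKO sample was in the Cy5 dye and every WT sample in Cy3, so genotype and dye cannot be told apart here. Every labelled Cy5 line lacked Tet2 and no labelled Cy3 line did, so Tet2 loss and dye coincide over all lines. In the Tet2 knockout line (Cy5) over a Tet1 knockout line (Cy3), the log2 ratio was -0.45 for Pcna and 0.00 for Ccne1. Both calls depended on the within-array normalization, here loess. Under median centring (with an all-gene median of 0.20) the log2 values were 0.12 for Pcna and 0.13 for Ccne1, and neither passed. The 6 Mcm genes and Cdc6 then passed as higher, at 0.38 to 0.72, where 6664 of 20663 genes passed as higher. The Tet2 over Tet1 knockout ratios became 0.27 for Pcna and 0.62 for Ccne1, beside an all-gene median of 0.23. Neither passed with the log ratios of the scanner software, where 688 of 20663 genes passed. With sex as a covariate, or without any 1 of the 4 pairs of lines, no gene on the array passed. Those settings therefore say nothing particular about these 2 calls.

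A replication origin is licensed in G1, when the origin recognition complex, CDC6 and CDT1 load the MCM helicase, a ring of the 6 subunits encoded by Mcm2 to Mcm7. Cyclin E, encoded by Ccne1 and Ccne2, activates the kinase CDK2 to drive entry into S phase, and PCNA is the sliding clamp that holds DNA polymerases on the template. Mouse ES cells are known for a short G1 phase and for cyclin E activity that persists through much of the cell cycle. Tet1 and Tet2 encode dioxygenases that oxidise 5-methylcytosine in DNA.

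The series asked how loss of Tet1, Tet2 or both changes gene expression, and it holds 10 two-colour Agilent arrays of 11 labelled lines. The DKO lines, Tet1/Tet2 double knockouts, were 51 and 61 (male) and 60 and 59 (female). The Tet2 knockout (T2KO) was the single male line 16, and the Tet1 knockouts (T1KO) were the male lines 99 and 65. The WT lines were 6 and 92 (male) and 7 and 94 (female). Every line came from mice of a mixed C57/BL/6 background and grew in LIF medium on gamma-irradiated feeder cells, from which they were parted by preplating ahead of RNA extraction. DKO RNA was in the Cy5 channel and WT RNA in the Cy3 channel on 6 arrays, which form the 4 pairs DKO 51 with WT 6, DKO 61 with WT 92, DKO 60 with WT 7 and DKO 59 with WT 94. T2KO 16 in Cy5 was set against T1KO 65 in Cy3 on 2 arrays. T1KO 99 lay in Cy3 on 2 arrays beside a sample that the labels exclude for its genotype and that enters no comparison between groups. No dye was swapped, so genotype and dye cannot be told apart in DKO against WT. All labelled Cy5 lines (DKO and T2KO) lacked Tet2 and all labelled Cy3 lines (WT and T1KO) had it. Tet2 loss and dye therefore cannot be told apart in any comparison here. Of the 3 slides, the first held the male DKO arrays, the second the female DKO arrays and the third the rest, so sex and slide cannot be told apart.

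The targeted genes followed the labels. Tet1 levels (log2 intensity) were 10.52 to 11.07 in DKO lines, 12.91 in T2KO, 11 and 10.92 in T1KO lines 99 and 65 and 12.78 to 13.12 in WT lines. Tet2 levels were 9.41 to 10.12 in DKO lines, 9.74 in T2KO, 11.58 and 11.43 in the same T1KO lines and 11.51 to 12.06 in WT lines. All 8 ES cell markers examined, such as Pou5f1 and Nanog, were well above background in every line. Their median log2 ratio was 0.08 in DKO 51/WT 6, -0.31 in DKO 61/WT 92, -0.12 in DKO 60/WT 7, -0.24 in DKO 59/WT 94 and 0.51 in T2KO 16/T1KO 65. Also well above background in every line were all 10 fibroblast markers, such as Col1a1. The median fibroblast log2 ratio was -0.06 in DKO 51/WT 6, -0.53 in DKO 61/WT 92, 0.91 in DKO 60/WT 7 and -0.05 in DKO 59/WT 94. The summed fibroblast intensity spanned 86100 to 100000 in DKO lines and 80200 to 132000 in WT lines. Of 8 markers of differentiated cells, 6 or 7 were well above background in DKO lines and 5 to 7 in WT lines, with summed intensities of 1360 to 1710 in DKO and 1300 to 1840 in WT. The median log2 ratio of the 7 tested was 0.45 in DKO 51/WT 6, -0.01 in DKO 61/WT 92, -0.12 in DKO 60/WT 7, 0.20 in DKO 59/WT 94 and -0.48 in T2KO 16/T1KO 65. Mixl1 was not well above background in any line. The 4 markers of two-cell-like cells on the array summed to 2760 to 9080 in DKO lines and 1130 to 27900 in WT lines, with the highest value in WT 7. Their median log2 ratio was -1.94 in DKO 60/WT 7, 0.49 to 0.88 in the other 3 DKO/WT pairs and 1.34 in T2KO 16/T1KO 65. Of these 4 markers, Tcstv1 and Tcstv3 were not well above background in WT 6, WT 92 and T1KO 65. Tcstv3 was also not so in DKO 51, T2KO 16 and T1KO 99. The part of these cell types in the results below was not tested. In bulk RNA, fewer cells in S phase and less RNA per cell cannot be told apart.

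The promoters of Pcna and Ccne1, the genes that passed the test, and of Mcm6 and Mcm5, which did not, are shown from RefSeq (GRCm38.p6). Each runs from 250 bases before to 30 bases after the gene's start, on the gene's strand. Capitals mark matches to 4 forms of the motif of E2F, the factor known for driving S-phase genes: TTTCCCGC, TTTGGCGC, TTTCGCGC and TTTGCCGC, on either strand, where neighbouring matches may overlap.
Pcna, chr2:132253151-132253430, minus strand: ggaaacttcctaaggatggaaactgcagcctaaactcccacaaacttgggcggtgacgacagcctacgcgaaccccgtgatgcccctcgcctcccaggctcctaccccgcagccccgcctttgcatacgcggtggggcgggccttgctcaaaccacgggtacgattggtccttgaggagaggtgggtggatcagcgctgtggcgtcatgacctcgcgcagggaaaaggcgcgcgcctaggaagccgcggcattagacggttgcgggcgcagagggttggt
Ccne1, chr7:38107461-38107740, minus strand: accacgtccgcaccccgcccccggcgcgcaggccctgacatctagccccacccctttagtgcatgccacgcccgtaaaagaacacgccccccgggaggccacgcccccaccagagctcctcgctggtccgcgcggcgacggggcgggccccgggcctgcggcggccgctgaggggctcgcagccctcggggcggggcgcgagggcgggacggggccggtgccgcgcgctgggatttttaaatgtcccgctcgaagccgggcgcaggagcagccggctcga
Mcm6, chr1:128359676-128359955, minus strand: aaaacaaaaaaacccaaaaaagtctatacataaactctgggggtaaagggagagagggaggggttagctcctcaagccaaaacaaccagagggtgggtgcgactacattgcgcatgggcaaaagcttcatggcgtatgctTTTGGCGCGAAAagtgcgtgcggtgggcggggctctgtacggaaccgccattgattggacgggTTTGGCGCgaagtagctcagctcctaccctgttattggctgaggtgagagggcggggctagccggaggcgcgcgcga
Mcm5, chr8:75109259-75109538, plus strand: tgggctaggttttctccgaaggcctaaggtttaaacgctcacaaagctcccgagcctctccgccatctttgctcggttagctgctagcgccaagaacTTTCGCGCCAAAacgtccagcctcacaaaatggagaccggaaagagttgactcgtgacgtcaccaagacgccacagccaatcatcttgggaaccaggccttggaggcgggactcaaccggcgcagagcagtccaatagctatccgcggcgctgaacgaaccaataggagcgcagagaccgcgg
Over windows of 300 bases, 5 of the 8 genes found in the promoter table held a match, namely Mcm3, Mcm5, Mcm6, Mcm7 and Cdc6. Pcna, Ccne1 and Mcm2 held none of these letters in the window. Over the whole table, 2.26% of 32851 windows, or 704 of 27025 genes, held one. A match of letters is a description and not a binding site. Under loess, none of the 5 genes with a match passed the test in DKO over WT, and nothing was tested about the factor.

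Pcna was measured by 1 probe (A_55_P2105002), of which the array design places 33 of 60 bases at chr2:132075022-132075054 (mm9, minus strand). Its first 30 bases, shown because the largest change of the 9 genes rests on this probe, are given here.
Pcna, A_55_P2105002: ctgctttacaaatactggtgattttccatc
Whether this stretch is exonic or in a UTR was not annotated here. Pcna levels were 15.41, 15.43, 15.43 and 15.28 in DKO lines 51, 61, 60 and 59, 15.25 in T2KO 16, 15.83 and 15.70 in T1KO lines 99 and 65, and 15.91, 15.95, 15.83 and 15.93 in WT lines 6, 92, 7 and 94. Every DKO line lay below every WT line, and among the 9 genes this held for Pcna alone. Over all genes it held for 5.96%. The reverse, every DKO line above every WT line, held for none of the 9 genes and for 7.54% of all genes. The T2KO line, also in Cy5 and also without Tet2, lay below all Cy3 lines too. The group means were 15.39 ± 0.074 in DKO and 15.91 ± 0.0542 in WT (SD, n = 4 lines each).

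On the log2 scale the Pcna ratio was -0.50 in DKO 51/WT 6, -0.53 in DKO 61/WT 92, -0.40 in DKO 60/WT 7 and -0.66 in DKO 59/WT 94. It was therefore lower in 4 of 4 pairs. The mean was -0.52 with a standard error of 0.0665 and a 95% interval of -0.69 to -0.35, and it passed the test over all genes (limma, Benjamini-Hochberg adjusted p = 0.0279). The call was lost in the log ratios of the scanner software, with a mean of -0.36 (adjusted p = 0.0925). Without any 1 of the 4 pairs the adjusted p was between 0.0682 and 0.152, while the mean stayed between -0.56 and -0.47. With sex as a covariate the adjusted p was 0.0651. No gene on the array passed without any 1 pair or with sex as a covariate, so the loss there is not particular to Pcna.

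Ccne1, which encodes cyclin E1, had 2 tested probes on chromosome 7. The brighter, A_51_P408946, has 24 of 60 bases placed at chr7:38882937-38882960 (mm9, minus strand). The other, A_66_P125327, lies at chr7:38885574-38885633 on the same strand. The first 30 bases of each are shown because the gene is judged by both.
Ccne1, A_51_P408946: gcatgtcctgccttcatgaactcttatttt
Ccne1, A_66_P125327: ataaaaacacttttacagcttattgggatt
By the brighter probe, Ccne1 levels were 14.41, 14.75, 14.37 and 14.64 in DKO lines 51, 61, 60 and 59, 14.59 in T2KO 16, 14.79 and 14.59 in T1KO lines 99 and 65, and 14.87, 15.13, 14.66 and 15.16 in WT lines 6, 92, 7 and 94. The DKO and WT lines overlapped, because WT 7 lay below DKO 61. Within the arrays, however, each DKO line was below its WT partner. The log2 ratio was -0.46 in DKO 51/WT 6, -0.38 in DKO 61/WT 92, -0.29 in DKO 60/WT 7 and -0.51 in DKO 59/WT 94.

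The mean Ccne1 ratio was -0.41 with a standard error of 0.0646 and a 95% interval of -0.57 to -0.25 (limma, adjusted p = 0.0406). By the other probe the ratio was -0.53, -0.34, -0.09 and -0.43 in the same pairs. Its mean was -0.35 (adjusted p = 0.094 over all probes), so both probes had the same sign in every pair and the second did not pass. Without any 1 pair the brighter probe gave -0.45 to -0.37 with adjusted p from 0.0819 to 0.185, and the scanner software's log ratios gave -0.27 (adjusted p = 0.149). The call was also lost with all spots in the background fit (adjusted p = 0.0552) and with sex as a covariate (adjusted p = 0.078). No gene on the array passed without any 1 pair or with sex as a covariate, so the loss there is not particular to Ccne1. Ccne2, which encodes cyclin E2, had 1 probe (chr4:11131423-11131482, mm9, plus strand). On none of the 10 arrays was it well above background, in either channel, so no ratio is given.

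**Figure D1:**
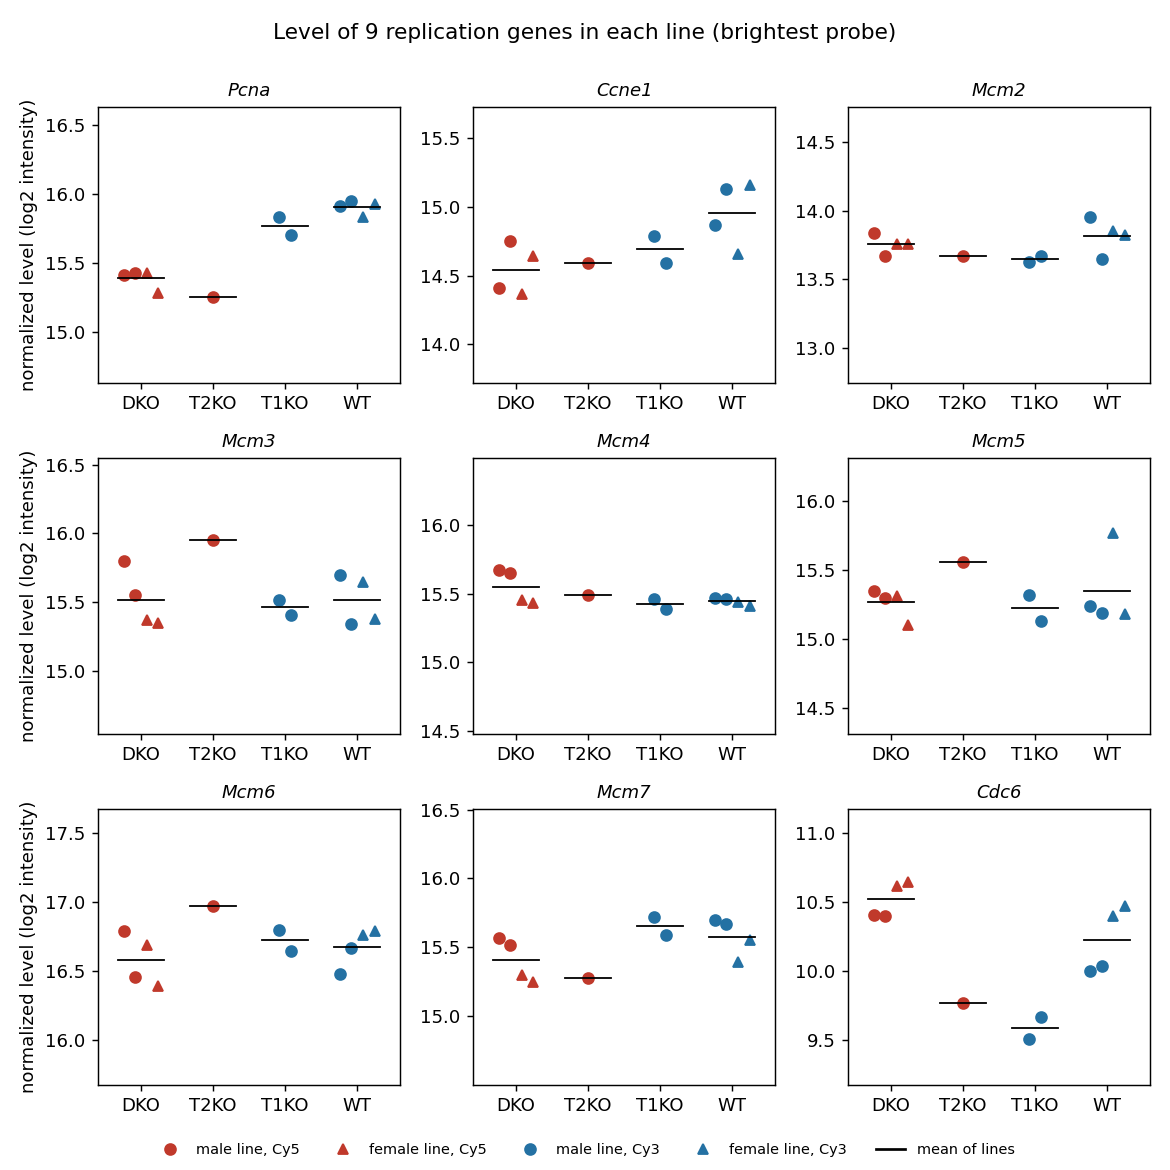
Normalized level (log2 intensity) of the brightest probe of 9 replication genes, with 1 point per line, DKO and T2KO in Cy5 and T1KO and WT in Cy3, and a bar at the mean of the lines. The Pcna points of DKO lines (15.28 to 15.43) sit below those of WT lines (15.83 to 15.95), while the other 8 genes overlap between DKO and WT lines.

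Among the 6 helicase genes, none passed the test in DKO over WT under loess. By the brightest probe, the mean log2 ratios ran between -0.17 for Mcm7 and 0.10 for Mcm4, and the other Mcm3 probe was at 0.43. Under median centring all 6 passed as higher, at 0.38 (Mcm2) to 0.72 (Mcm4), beside an all-gene median of 0.20 and 6664 of 20663 genes passing as higher. The values below are those under loess. Mcm2 levels were 13.84, 13.67, 13.76 and 13.76 in DKO lines 51, 61, 60 and 59, 13.67 in T2KO 16, 13.63 and 13.67 in T1KO lines 99 and 65, and 13.95, 13.65, 13.85 and 13.82 in WT lines 6, 92, 7 and 94. The lines overlapped, and the mean ratio was -0.06 with a 95% interval of -0.21 to 0.08 (limma, adjusted p = 0.543).

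Mcm4 was higher in 4 of 4 pairs by small amounts, with log2 ratios of 0.20, 0.19, 0.01 and 0.02 in DKO 51/WT 6, DKO 61/WT 92, DKO 60/WT 7 and DKO 59/WT 94. Its levels were 15.67, 15.65, 15.45 and 15.43 in the DKO lines in that order, 15.49 in T2KO, 15.46 and 15.39 in T1KO lines 99 and 65, and 15.47, 15.46, 15.44 and 15.41 in the WT lines. The male DKO lines lay above all other lines. The mean ratio was 0.10 with an interval of -0.06 to 0.27 (limma, adjusted p = 0.375).

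Mcm7 was lower in 4 of 4 pairs, with log2 ratios of -0.13, -0.15, -0.09 and -0.29 in the same order. Its levels were 15.57, 15.52, 15.30 and 15.25 in DKO lines 51, 61, 60 and 59, 15.28 in T2KO, 15.72 and 15.59 in T1KO lines 99 and 65, and 15.70, 15.67, 15.39 and 15.55 in the WT lines. Male DKO lines lay within the WT range, and female DKO lines and T2KO below it. The mean was -0.17 with an interval of -0.32 to -0.01 (limma, adjusted p = 0.179).

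Mcm5 log2 ratios were 0.11, 0.11, -0.46 and -0.08 in DKO 51/WT 6, DKO 61/WT 92, DKO 60/WT 7 and DKO 59/WT 94. Its levels were 15.35, 15.30, 15.31 and 15.10 in the DKO lines in that order, 15.56 in T2KO, 15.32 and 15.13 in T1KO lines 99 and 65, and 15.24, 15.19, 15.77 and 15.18 in the WT lines. WT 7 stood above the other WT lines. The mean was -0.08 with an interval of -0.37 to 0.21 (limma, adjusted p = 0.692), and without DKO 60 and WT 7 it was 0.05.

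Mcm6 log2 ratios were 0.31, -0.21, -0.06 and -0.40 in the same pairs, so the pairs did not share a direction. Its levels were 16.79, 16.46, 16.69 and 16.39 in DKO lines 51, 61, 60 and 59, 16.97 in T2KO, 16.80 and 16.65 in T1KO lines 99 and 65, and 16.48, 16.67, 16.76 and 16.79 in the WT lines. T2KO was the highest line. The mean was -0.09 with an interval of -0.41 to 0.23 (limma, adjusted p = 0.689).

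Mcm3 was read by 2 overlapping probes on chromosome 1, A_51_P324934 at chr1:20793119-20793178 and A_55_P1953087 at chr1:20793136-20793195 (mm9, minus strand). They share 43 bases with 1 difference, G14A, counted from 1 at the 5′ end of A_51_P324934. The 30 bases around it are shown, with the base that differs in capitals, because the probes gave unlike ratios.
Mcm3, A_51_P324934: aagctttctttgcGattagactagtatgta
Mcm3, A_55_P1953087: aagctttctttgcAattagactagtatgta
By the first probe, Mcm3 levels were 15.80, 15.55, 15.37 and 15.35 in DKO lines 51, 61, 60 and 59, 15.95 in T2KO 16, 15.52 and 15.41 in T1KO lines 99 and 65, and 15.70, 15.34, 15.65 and 15.38 in WT lines 6, 92, 7 and 94. The groups overlapped. The log2 ratios were 0.10, 0.21, -0.28 and -0.02 in the pairs, with a mean of 0.00 and an interval of -0.24 to 0.24 (limma, adjusted p = 0.998).

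By the second probe, Mcm3 levels were 15.87, 15.29, 15.22 and 15.18 in the DKO lines, 14.92 in T2KO, 14.52 and 14.39 in T1KO lines 99 and 65, and 14.73, 15.23, 14.74 and 15.15 in the WT lines. WT 6 and WT 7 lay below the other WT lines, and T2KO and T1KO lay below every DKO line. The log2 ratios were 1.15, 0.07, 0.47 and 0.03 in DKO 51/WT 6, DKO 61/WT 92, DKO 60/WT 7 and DKO 59/WT 94. The mean was 0.43 with an interval of -0.08 to 0.94 (limma, adjusted p = 0.25 over all probes). Since the 2 probes gave unlike ratios, neither stands for Mcm3 as a whole. Mcm3 values given without a probe are those of the first probe.

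Cdc6, the loader of the helicase, had 2 tested probes on chromosome 11. The brighter, A_66_P131979, lies at chr11:98782986-98783045 and the other, A_52_P219473, at chr11:98785169-98785228 (mm9, plus strand). Their first 30 bases are shown because they too gave unlike ratios.
Cdc6, A_66_P131979: tgtaaagaactttgaagtttagaaggatga
Cdc6, A_52_P219473: ttaagaaccagattaagtttccatagtgtc
By the brighter probe, Cdc6 levels were 10.41, 10.40, 10.62 and 10.65 in DKO lines 51, 61, 60 and 59, 9.77 in T2KO 16, 9.51 and 9.67 in T1KO lines 99 and 65, and 10, 10.04, 10.40 and 10.47 in WT lines 6, 92, 7 and 94. The male DKO lines lay near the female WT lines, and the T1KO and T2KO lines, all on another slide, were the lowest. The log2 ratios were 0.41, 0.37, 0.22 and 0.19 in DKO 51/WT 6, DKO 61/WT 92, DKO 60/WT 7 and DKO 59/WT 94.

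By the brighter probe the mean Cdc6 ratio was 0.30 with an interval of 0.13 to 0.47, higher in 4 of 4 pairs, and did not pass (limma, adjusted p = 0.0769). Under median centring this probe was at 0.57 and passed as higher (limma, adjusted p = 0.00846). By the other probe, Cdc6 log2 ratios were -0.08, 0.13, -0.17 and 0.23, with a mean of 0.03 and an interval of -0.19 to 0.25 (adjusted p = 0.875 over all probes). The second probe's levels were 8.66 to 9.09 in DKO lines, 8.89 in T2KO, 8.62 and 8.98 in T1KO lines and 8.74 to 9.02 in WT lines, so they overlapped.

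**Figure D2:**
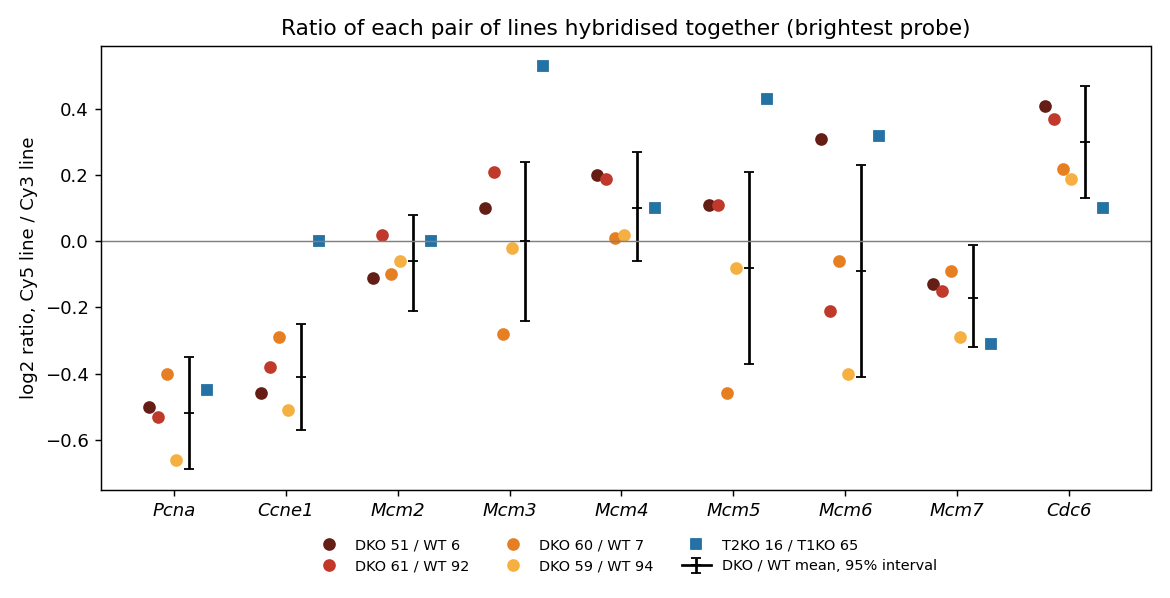
Log2 ratio of each pair of lines hybridised together for the brightest probe of 9 genes, with 4 DKO/WT pairs as circles, their mean and 95% interval in black, and T2KO 16/T1KO 65 as a square. Pcna (-0.66 to -0.40) and Ccne1 (-0.51 to -0.29) lie below 0 in all 4 DKO/WT pairs under loess, while under median centring both means are above 0 at 0.12 and 0.13.

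In the main fit, 2 of the 9 genes passed in DKO over WT, both lower, where 1.74% of all genes passed as lower, 2.90% as higher and 4.64% in either direction. At an unadjusted p below 0.05 there were 4 of 9 (Pcna, Ccne1, Mcm7 and Cdc6), against 5419 of 20663 genes. The median log2 ratio was -0.08 over the 9 genes and 0.02 over all genes. Pcna, Ccne1 and Mcm7 were lower in 4 of 4 pairs, as were 17.1% of all genes. Mcm4 and Cdc6 were higher in 4 of 4 pairs, as were 20.2% of all genes. Pcna had the lowest or second lowest ratio of the 9 genes, with Ccne1 beside it, in each of the 14 settings that measured both. The main fit is among these settings, and several of the others cannot change the ratios, so this is no separate support.

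The difference between the male and female DKO/WT pairs was close to 0 for Pcna and Ccne1. It was 0.01 with an interval of -0.39 to 0.41 for Pcna and -0.01 with an interval of -0.40 to 0.37 for Ccne1. The largest was 0.38 for Mcm5, with an interval of -0.09 to 0.85. None of the 9 genes passed (limma, Benjamini-Hochberg), none reached an unadjusted p below 0.05, and 0% of all genes passed, with 1064 below 0.05 unadjusted.

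T2KO was compared directly with T1KO on 2 arrays of 1 pair of lines, whose spread was taken from the DKO/WT pairs. The Pcna log2 ratio was -0.45 with an interval of -0.85 to -0.05 (limma, adjusted p = 0.348). The Ccne1 ratio was 0.00 with an interval of -0.39 to 0.39 by the brighter probe and 0.07 by the other. The ratios of Mcm3, by either probe, and Mcm5 were 0.53 (adjusted p = 0.32 by the brighter) and 0.43 (adjusted p = 0.41), and that of Mcm7 was -0.31 (adjusted p = 0.435). Mcm6 was at 0.32, Mcm4 and Cdc6 at 0.10 (Cdc6 at -0.10 by its other probe) and Mcm2 at 0.00. None of the 9 genes passed, 2 (Pcna and Mcm3) were below 0.05 unadjusted, and 0% of all genes passed, with 2699 below 0.05 unadjusted. Under loess, Pcna thus had a Cy5 over Cy3 ratio below 0 in this pair as in the DKO/WT pairs. In all these pairs the Cy5 line lacked Tet2 and the Cy3 line did not, so dye and Tet2 loss cannot be told apart. Under median centring the Pcna ratio in this pair was 0.27, beside an all-gene median of 0.23.

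The dye enters both ratios, and so does Tet2 loss. Taking the T2KO/T1KO ratio from the male DKO/WT mean and dividing by 2 estimates Tet1 loss without either, provided that the effects of Tet1 and Tet2 loss add on the log2 scale. It also takes the dye effect of each gene to be the same on the slides of both ratios, which was not tested. By this measure Pcna was at -0.03 with an interval of -0.28 to 0.21, and Ccne1 at -0.21 with an interval of -0.44 to 0.03 (limma, adjusted p = 0.935 and 0.521). By the brightest probe, the 7 other genes ran between -0.19 for Mcm3 and 0.14 for Cdc6, and the other probes of Mcm3 and Cdc6 were at 0.04 and 0.06. None of the 9 passed and none was below 0.05 unadjusted, as 0% of all genes passed and 2129 were below 0.05 unadjusted.

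Lines within 1 dye were also compared, across slides. Male DKO minus T2KO, both Cy5, gave 0.17 for Pcna (interval -0.19 to 0.53), -0.01 for Ccne1 (-0.57 to 0.55) and 0.64 for Cdc6 (0.31 to 0.96; limma, adjusted p = 0.323). T1KO minus male WT, both Cy3, gave -0.17 for Pcna (-0.43 to 0.10), -0.31 for Ccne1 (-0.80 to 0.18) and -0.43 for Cdc6 (-0.70 to -0.16; adjusted p = 0.253). The other Ccne1 probe gave -0.57 in T1KO minus male WT (-0.91 to -0.23; adjusted p = 0.255 over all probes). The other Cdc6 probe gave -0.06 in male DKO minus T2KO and 0.00 in T1KO minus male WT. By the brightest probe, the 6 Mcm genes ran from -0.34 (Mcm6) to 0.26 (Mcm7) in male DKO minus T2KO and from -0.15 (Mcm2) to 0.15 (Mcm6) in T1KO minus male WT. The other Mcm3 probe gave 0.66 (-0.03 to 1.35) in male DKO minus T2KO and -0.52 (-1.05 to 0.01) in T1KO minus male WT. In each of these 2 comparisons none of the 9 genes passed and 1, Cdc6, was below 0.05 unadjusted. Over all genes, 2 (0.00968%) passed in male DKO minus T2KO and none (0%) in T1KO minus male WT, with 2633 and 2828 below 0.05 unadjusted.

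**Figure D3:**
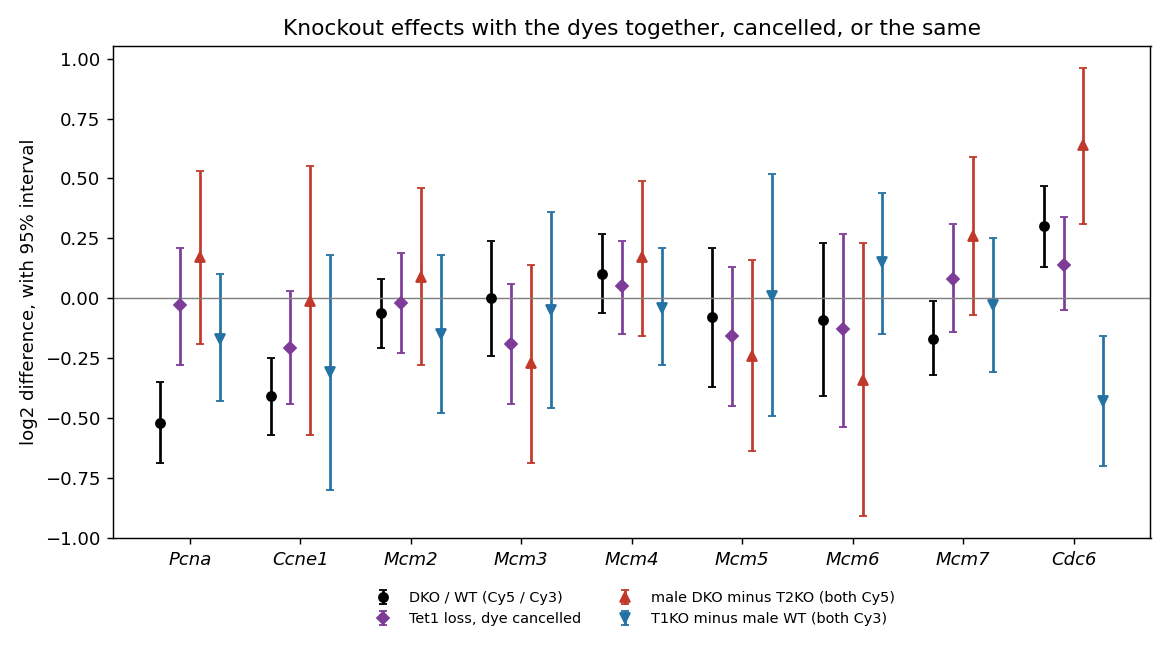
Log2 difference with its 95% interval for 9 genes in DKO over WT, Tet1 loss with the dye cancelled, male DKO minus T2KO and T1KO minus male WT. The interval of Pcna lies below 0 in DKO over WT (-0.69 to -0.35) and spans 0 in the other 3, and under median centring the DKO over WT value of Pcna is 0.12.

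The partners of the licensing factors were taken as a list of 19 genes, from the origin recognition complex to GINS and CDC7. All 19 were tested and none passed in DKO over WT (limma), with 5 below 0.05 unadjusted, where 5419 of 20663 genes were. Their median log2 ratio was 0.03. The lowest was Cdt1, which loads the helicase with CDC6, with ratios of -0.40, 0.02, -0.68 and -0.26 in DKO 51/WT 6, DKO 61/WT 92, DKO 60/WT 7 and DKO 59/WT 94. Its mean was -0.33 (adjusted p = 0.172). The highest was Mcm8, a paralogue of the helicase genes, at -0.05, 0.71, -0.02 and 0.83, and a mean of 0.37 (adjusted p = 0.272). Its other probe had a mean of -0.06.

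Of 30 genes of the replication fork and nucleotide supply, 5 passed as lower and none as higher, with 13 below 0.05 unadjusted and a median of -0.16. Over all 20663 genes, 1.74% passed as lower and 5419 were below 0.05 unadjusted. Of the 5, 4 are described. Chaf1b, a subunit of the histone chaperone CAF-1, had log2 ratios of -0.45, -0.44, -0.38 and -0.50 in DKO 51/WT 6, DKO 61/WT 92, DKO 60/WT 7 and DKO 59/WT 94, a mean of -0.44 (limma, adjusted p = 0.0271) and -0.40 by its other probe. Uhrf1, which recruits the maintenance DNA methyltransferase, had ratios of -0.40, -0.42, -0.41 and -0.38 and a mean of -0.40 (adjusted p = 0.0288), but -0.11 by its other probe. Rfc1, the large subunit of the clamp loader that places PCNA, had ratios of -0.36, -0.27, -0.42 and -0.42 and a mean of -0.37 (adjusted p = 0.0414).

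Slbp, which binds histone mRNA, was at -0.40, -0.26, -0.41 and -0.41 in these pairs with a mean of -0.37 (limma, adjusted p = 0.0418), and at -0.04 by its other probe. Each of these 4 genes was lower in 4 of 4 pairs. Their T2KO 16/T1KO 65 ratios were 0.21 for Chaf1b, -0.13 for Uhrf1, -0.10 for Rfc1 and 0.19 for Slbp. Without any 1 pair, or with sex as a covariate, no gene on the array passed, these 4 included. Median centring, under which Pcna and Ccne1 turned to values above 0, was not examined for these 4 genes.

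Prim2, the large subunit of primase and the highest of the fork list, was on chromosome 1 (chr1:33510733-33510792, mm9) with a mean of 1.22 that did not pass (adjusted p = 0.277). Its levels were 11.73, 10.86, 11.13 and 11.04 in DKO lines 51, 61, 60 and 59, 8.35 in T2KO 16, 8.04 and 7.96 in T1KO lines 99 and 65, and 8.84, 11.18, 8.84 and 11.05 in WT lines 6, 92, 7 and 94. WT 6, WT 7, T2KO and both T1KO lines lay far below the rest, and the same lines were the lower ones for the second Mcm3 probe.

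**Figure D4:**
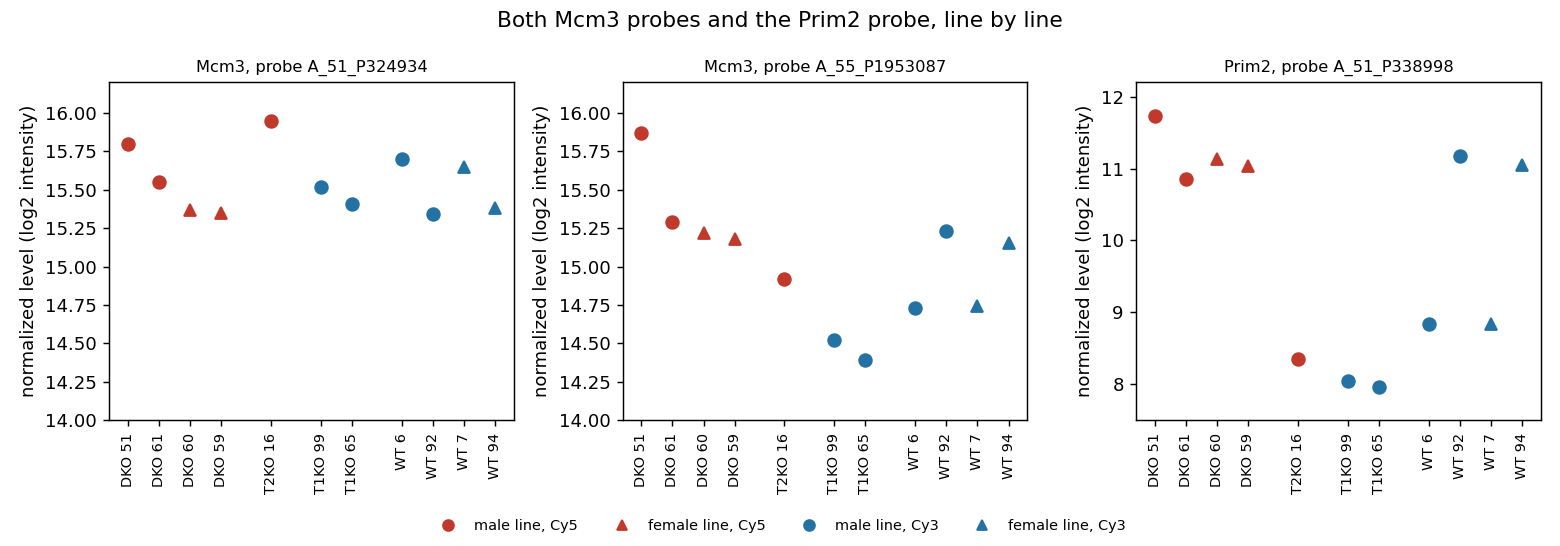
Normalized level (log2 intensity) in each line of the 2 Mcm3 probes and of the Prim2 probe, coloured by dye, with DKO lines first and WT lines last. The second Mcm3 probe and Prim2 are lower in T2KO 16, T1KO 99, T1KO 65, WT 6 and WT 7 (Mcm3 at 14.39 to 14.92, Prim2 at 7.96 to 8.84) than in the other 6 lines, and the first Mcm3 probe is not.

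Of 29 genes that control the step from G1 to S, none passed in DKO over WT (limma), with 5 below 0.05 unadjusted and a median of 0.05. The extremes were Cdkn1c, an inhibitor of cyclin-dependent kinases, at 0.49 (adjusted p = 0.113) and Mycn at -0.34 (adjusted p = 0.368). Of 20 tested genes of G2 and mitosis, on a list of 21, none passed, with 7 below 0.05 unadjusted and a median of -0.18. The extremes were Ttk, a checkpoint kinase, at 0.35 (adjusted p = 0.192) and Mki67, a marker of proliferating cells, at -0.30 (adjusted p = 0.052). The Mki67 ratios were -0.27, -0.26, -0.33 and -0.34 in the 4 pairs and -0.25 in T2KO 16/T1KO 65, also Cy5 over Cy3 and also a line without Tet2 over a line with it. Mki67 was at -0.01 for Tet1 loss with the dye cancelled and at 0.23 in T1KO minus male WT. These lists stand beside a median of 0.02 and 5419 of 20663 below 0.05 unadjusted over all genes.

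The 9 genes did not share 1 pattern across lines. Over the 11 lines, with levels centred within each dye, the correlation between 2 genes ran from -0.456 (Mcm3 and Cdc6) to 0.765 (Mcm4 and Mcm7), with a median of 0.11 over 36 pairs. The points share arrays and slides, and the correlations are descriptions. Each of the 9 genes correlated with the mean of the others at -0.115 (Mcm7) to 0.551 (Pcna). The genes outside the list most like the mean of the 9 were Tbc1d7 (r = 0.945), Cog3 (0.932), Psmd1 (0.93), Dhx15 (0.912) and BB618686 (0.911), over the same 11 lines. These were picked as the highest values among all tested genes, and such picking alone gives high values.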

How the data were processed

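RNA of mouse ES cells was labelled from 200 ng of total RNA and hybridised on 10 two-colour arrays, per the labels' protocols. Per the file headers, Agilent Feature Extraction 10.1.1.1 wrote the deposited scanner files, which give for every spot the mean intensity and local background intensity per channel without normalization. A processed intensity, corrected for background and dye by the software, and the log10 of Cy5 over Cy3 processed intensity are deposited beside them. The authors' values (31595 probes, 31539 matched) lie close to a log2 scale, with Cy5 on top, as their slope of 2.77 to 2.94 on the log10 ratios showed (r = 0.925 to 0.971). Column medians were 0.00178 to 0.00752, and neither normalization nor centring of these values is given in the sources used here.

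From the intensities, background was corrected with normexp (offset 50, leaving out of its fit gene spots below their local background, 71 to 122 an array), ratios were normalized by loess within arrays and channels by Aquantile between arrays, in limma 3.58.1 on R 4.3.3, with the R package data.table (version 1.17.8), jsonlite 2.0.0 and matplotlib 3.10.9 for the plots. Control spots had no weight, outlier spots (173 to 337 per array) were dropped, and repeat arrays of a pair were averaged, so that the replicate is the pair of lines or the line. A probe was tested if well above background on all arrays of a group of genotype and sex, and a gene was represented by its brightest probe. Tests were limma (lmFit and eBayes, two-sided), with Benjamini-Hochberg adjustment over 20663 genes at 0.05, or over all 25865 probes where the text says so. P-values measure the spread between lines or pairs. The number of arrays limits the precision. Well above background were 62.6% to 69.0% of 43020 gene spots in Cy5 and 55.2% to 61.5% in Cy3. Repeat arrays correlated at 0.923 to 0.968, and the 12 tested probes differed by at most 0.18 between them. The estimates of DKO over WT and of Tet1 loss were checked on simulated ratios. The planted DKO over WT changes were larger than those of Pcna and Ccne1 and held no dye effect. The check therefore does not bear on these 2 calls. A comparison without calls does not show a lack of change.

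The genes, the lists and the spots left out of the background fit were chosen with earlier results of these data known. Of the lists, the text names the genes past the threshold and the highest and lowest, except 1 gene that is not reported here. The genes most alike are the 5 with the highest Pearson r. Probe positions are those of the array design (mm9), and exons were not annotated here. Same-numbered replicate arrays did not deviate together (r -0.0857 to 0.0248). The alternatives tried changed the normexp fit, the normalization, the filter, the probes, the variance prior, the use of repeat arrays, sex as a covariate and each pair left out in turn.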

Additional observations from a re-analysis of the deposited data

Results flagged for a closer look

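The 12 tested probes gave 36 groups of 4 values (levels in DKO lines, levels in WT lines and ratios of pairs), and in 3 of them 1 line stood apart from the other 3 by more than Dixon's limit, and chance gives about 1 in 20. Pcna was at 15.28 in DKO 59, against 15.41 to 15.43 in the other DKO lines. Mcm3, by probe A_55_P1953087, was at 15.87 in DKO 51, against 15.18 to 15.29 in the other DKO lines. Mcm5 was at 15.77 in WT 7, against 15.18 to 15.24 in the other WT lines.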

How the results depend on the processing

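Pcna and Ccne1 had the lowest DKO over WT ratios of the 9 genes in all 14 settings that measured both, the main fit included. Where only the filter, the probes, the variance prior or the sex covariate changed, the ratios could not change. The settings that left out a pair reused the remaining pairs. Of 959 genes called in DKO over WT (62.6% higher) and 2 of the 9, all spots in the background fit left 363 and 1 (Pcna -0.51, adjusted p = 0.0465; Ccne1 -0.42, 0.0552). The scanner software's log ratio left 688 (75.7% higher) and 0. Median centring gave 7216 (92.4% higher) and 7, namely the Mcm genes and Cdc6, all as higher. Its log2 values were 0.12 for Pcna, 0.13 for Ccne1, 0.38 for Mcm2, 0.62 for Mcm3, 0.72 for Mcm4, 0.52 for Mcm5, 0.65 for Mcm6, 0.45 for Mcm7 and 0.57 for Cdc6, beside an all-gene median of 0.20. The authors' value table, which holds 7 of the 9 genes, gave 532 and 1 (Pcna -0.51, adjusted p = 0.0326), with Mcm4 at -0.13. Every array with the pair as a random block gave 1476 (51.8% higher) and 2, and the fit with replicate block gave 942 (55.8% higher) and 2 (Pcna -0.51, adjusted p = 0.0236; Ccne1 -0.41, 0.0318). The trend prior, every probe and no filter gave 1072, 1040 and 1192 calls, with both genes called. The replicate numbers only name repeat arrays and do not pair the samples. Sex as a covariate left 0 and 0, with 5277 genes below 0.05 unadjusted (Pcna adjusted p = 0.0651, Ccne1 0.078). Leaving out each pair in turn left 0 and 0, with 3621 to 4881 genes below 0.05 unadjusted. Mcm5 then ran from -0.14 to 0.05 (without DKO 60 and WT 7), and Mcm6 from -0.22 to 0.01 (without DKO 59 and WT 94). The cause of these changes was not tested, except that fewer pairs or degrees of freedom entered the last 2 settings.

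In the other comparisons no call of the 9 genes changed. Over all genes, Tet1 loss without a filter gave 3 calls, T1KO minus male WT with the processed signal gave 4, and male DKO minus T2KO gave 1 with all spots, 0 with the processed signal and 0 without either male DKO line, against 2. Signs turned as follows, with no value past the threshold. With the scanner software's log ratio, Tet1 loss gave 0.03 for Pcna and -0.02 for Mcm4. With median centring, the male minus female value of Ccne1 was 0.13, and T2KO over T1KO gave 0.27 for Pcna and 0.41 for Mcm7. The other genes also moved up in that comparison and setting, without a turn of sign. They then ran from 0.41 for Cdc6 to 1.28 for Mcm3, with Ccne1 at 0.62, beside an all-gene median of 0.23. With the processed signal, T1KO minus male WT gave 0.07 for Mcm4, -0.10 for Mcm5, -0.06 for Mcm6 and 0.04 for Mcm7, and male DKO minus T2KO gave 0.05 for Ccne1, -0.09 for Mcm2 and -0.12 for Mcm4. Without single lines, T1KO minus male WT ran from -0.08 (without T1KO 99) to 0.11 for Mcm5, with -0.01 without WT 92, from -0.10 to 0.03 (without T1KO 65) for Mcm7 and from -0.23 to 0.12 (without WT 6) for Mcm3. Male DKO minus T2KO ran from -0.18 to 0.16 (without DKO 51) for Ccne1.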

Other observations

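The sample that shared the T1KO 99 arrays in the Cy5 channel is excluded by the labels and belongs to no group here. Its Pcna log2 ratio over T1KO 99 was -0.49 on 1 array and -0.57 on the other. The Ccne1 ratio of the same sample was 0.27 and 0.31 by the brighter probe and 0.07 on both arrays by the other. Mcm7 was at -0.43 and -0.44 and Mcm2 at -0.36 and -0.30. The tested probes of Mcm3, Mcm4, Mcm5, Mcm6 and Cdc6 lay between -0.13 (Mcm6) and 0.10 (Mcm5).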
